A study of Homo sapiens with 8 samples.

Results

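The genes described here encode 10 surface and adhesion antigens of gastrointestinal epithelium: EPCAM, CDH17, CEACAM1, CEACAM5, CEACAM6, LGALS4, TSPAN8, TM4SF4, TM4SF5 and MEP1A. They were taken by name from the RNA-seq table, which holds 30755 gene symbols, and all 10 were found there. Expression was measured in ESO26, an established human oesophageal adenocarcinoma cell line, in 2 libraries of cells in which HNF4A was lowered by small interfering RNA (siHNF4A 1 and 2) and 2 control libraries. All came from cells grown in the same serum-supplemented RPMI-1640 medium. The titles name the knockdown libraries siHNF4AB1 and siHNF4AB2 without explaining the B, so whether both used the same small interfering RNA is not known from them. Effects of that RNA other than on HNF4A were not tested. The labels do not say what the control cells received or how long after transfection RNA was taken. They do not say that the libraries came from separate cultures, so the p-values measure the spread between these libraries, which may be technical. Values are normalized counts that the authors deposited. They allow a gene to be compared between libraries, but they are not divided by transcript length, so levels of different genes are not compared.

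Epithelial cells carry glycoproteins at their surface that hold neighbouring cells together, organise membrane microdomains or process peptides in the gut lumen. EPCAM is an adhesion and signalling protein of most simple epithelia, CDH17 (liver-intestine cadherin) joins intestinal cells, and the CEACAM proteins are immunoglobulin-like adhesion molecules that include the carcinoembryonic antigen CEACAM5. LGALS4 is a galectin, a lectin that binds galactose-containing sugars. TSPAN8 is a tetraspanin, TM4SF4 and TM4SF5 are membrane proteins of the L6 family that also cross the membrane several times, and MEP1A is a subunit of the brush border protease meprin. Several of them serve as markers or antibody targets in gastrointestinal cancer. HNF4A is a nuclear receptor that activates genes of liver and intestinal epithelium.

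Normalized counts summed to between 17912507 and 18613685 per library, and the number of sequenced reads behind them is unknown. The controls had 5479 and 5640 genes listed at 0, and the knockdown libraries 4260 and 4362. HNF4A itself had 4129 and 3937 normalized counts in the controls and fell to 1140 and 932, or 25.7% of the control mean. All 7 columnar epithelial markers that were examined, among them VIL1 with 12202 to 13832 normalized counts and KRT20 with 637 to 748, had a mean of at least 10. Their summed level was 88679 to 91636 in the controls and 82052 to 83701 in the knockdown, and without EPCAM, which is on that list, 58010 to 60924 and 56958 to 58578. Of 7 squamous markers 5 were in the table, IVL and SPRR3 were listed at 0 in 3 and 2 libraries, and the sum was 17.4 to 34.3 in the controls and 19.3 to 38.5 in the knockdown. Within it KRT14, a basal keratin, rose from 0.637 and 2.29 to 12.2 and 25.7 (log2 fold change 3.02, adjusted p = 0.018 in limma), though it fell below the tested range without either knockdown library. KRT14 was not called without the filter on low values (adjusted p = 0.0783 in limma), and its log2 fold change was 1.84 with a pseudocount of 5. KRT5, its partner keratin, had 32.6 and 12.1 against 6.14 and 10.5 and was not called (adjusted p = 0.19). Immune markers (2 of 5 in the table) summed to 6.43 to 13.2 in the controls and 15.4 to 17.6 in the knockdown. Fibroblast markers (4 of 6) summed to 125 to 195 in the controls and 225 in both knockdown libraries, nearly all of it COL1A1. Endothelial markers (2 of 3) summed to 15.2 to 24.6 and 47.2 to 64.0, with VWF rising from 8.55 and 6.68 to 47.5 and 36.4 (adjusted p = 0.0054 in limma, and 0.0756 without siHNF4A 1). The part of these markers in the results below was not tested. In libraries made from many cells, fewer cells that express a gene and less RNA per cell cannot be told apart.

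The comparison of knockdown with control cells asks which of these antigens changed when HNF4A was lowered. EPCAM fell to 81.8% of its control level and CDH17 rose to 115%, and no other member passed the test. Of the 10 members, 9 reached a mean of 10 normalized counts and were tested, and 2 of them, or 22.2%, were called at an adjusted p under 0.05 in limma. Among all 15577 genes tested 14.1% were called, 6.02% higher and 8.11% lower. The excess of lower calls was absent after quantile normalization, with 1031 higher and 1027 lower. It was kept after median-of-ratios rescaling, with 959 and 1238, and was much smaller without control 2. The median log2 fold change of the 9 members was -0.19, beside -0.0073 for all genes tested, with 4 members above 0 and 5 below. The groups did not overlap for 4 of the 9, while they did not overlap for 57% of all genes tested.

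**Figure D1:**
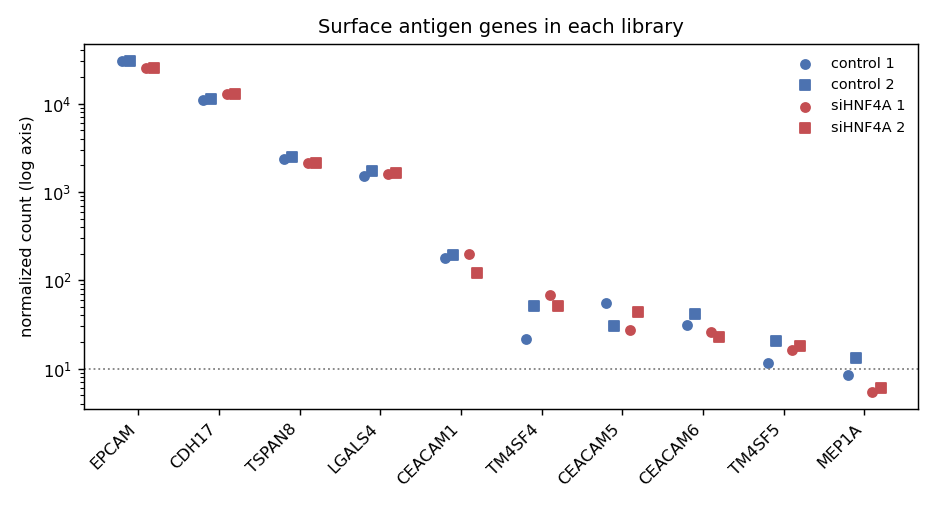
Normalized counts (log axis) of the 10 antigen genes in each library, with blue points for the controls, red points for the HNF4A knockdown and a dotted line at 10. EPCAM lies lower and CDH17 higher in both knockdown libraries, and the points spread more for the genes under 100; the order of the genes is not per transcript length.

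EPCAM had 30669 and 30712 normalized counts in the controls, against 25123 and 25094 in the knockdown. Both knockdown libraries lay below both controls, and the replicates of each group lay close together. The means were 30691 ± 30.4 and 25109 ± 20.7 (SD, n = 2 each), which is a log2 fold change of -0.29 (standard error 0.044, 95% interval -0.39 to -0.19, adjusted p = 0.0029 in limma). Leaving out any 1 library kept the call, with log2 fold changes from -0.291 to -0.289. A change larger than that of EPCAM was seen in 35.5% of all genes tested and in 21% of those whose mean reached 1000 normalized counts. EPCAM overlaps MIR559 in the RefSeq annotation.

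EPCAM forms complexes with claudin-7 and tetraspanins and is cut by surface proteases, so a list of 11 genes of such partners, proteases and related functions was read beside it. All 11 were tested and 4, or 36.4%, were called, 2 higher and 2 lower. Of the 11, 10 had a mean above 1000 normalized counts, where 26.2% of all genes tested were called. CLDN7, the claudin that binds EPCAM, fell from 5436 and 5715 to 4902 and 4701 (log2 fold change -0.22, adjusted p = 0.039 in limma). ADAM17, a protease that sheds surface proteins including EPCAM, fell from 1956 and 2057 to 1633 and 1706 (-0.26, adjusted p = 0.038 in limma). CD44, the hyaluronan receptor found in complexes with EPCAM and CLDN7, rose from 1077 and 882 to 1275 and 1488 (0.50, adjusted p = 0.018 in limma). The other 7 genes, the proteases ADAM10 and ST14, the matriptase inhibitors SPINT1 and SPINT2, the presenilins and FHL2, were not called, with log2 fold changes from -0.66 for PSEN2 to 0.19 for ADAM10. The calls of CLDN7, ADAM17 and CD44 were each lost in some of the fits that left out 1 library (for CLDN7 and ADAM17 without control 2 or either knockdown library, for CD44 without siHNF4A 2). They were also lost without the filter on low values, with adjusted p-values of 0.124, 0.116 and 0.117 in limma.

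The calls of CLDN7 and ADAM17 were also lost after quantile normalization, with adjusted p-values of 0.078 and 0.067 in limma. Of the other columnar markers KRT8 and KRT18, partner keratins of simple epithelia, fell (log2 fold changes -0.43 and -0.51) and KRT19 rose (0.22), with adjusted p-values of 0.0016, 0.00072 and 0.019 in limma, while CDH1, VIL1 and KRT20 were not called. The call of KRT19 was lost without control 1, without either knockdown library and without the filter on low values (adjusted p from 0.052 to 0.163), and those of KRT8 and KRT18 were kept in these fits. The keratins and VWF were named after their values were seen.

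CDH17 had 10963 and 11218 normalized counts in the controls, against 12777 and 12691 in the knockdown. Both knockdown libraries lay above both controls. The means were 11090 ± 181 and 12734 ± 61.0 (SD, n = 2 each), which is a log2 fold change of 0.20 (standard error 0.049, 95% interval 0.089 to 0.31, adjusted p = 0.026 in limma). A larger change was seen in 50.2% of all genes tested and in 36.2% of those whose mean reached 1000 normalized counts. Its call was lost without control 1 (adjusted p = 0.060), without siHNF4A 1 (0.158) and without siHNF4A 2 (0.141), and when genes with low values were not filtered out (0.082), while the log2 fold change stayed between 0.18 and 0.24. Among the other cadherins, CDH1 (E-cadherin) had 8196 and 8148 normalized counts in the controls, against 8940 and 9136 in the knockdown, and CDH3 (P-cadherin) had 2073 and 2384 against 2238 and 2117. Neither was called (adjusted p = 0.094 and 0.85 in limma), nor was CDH26, with 8.37 and 9.85 against 18.4 and 24.9 (adjusted p = 0.12). CDH17 overlaps LOC105375647 and RPL6P23 in the RefSeq annotation, and the sources used here do not say if reads were counted by strand.

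**Figure D2:**
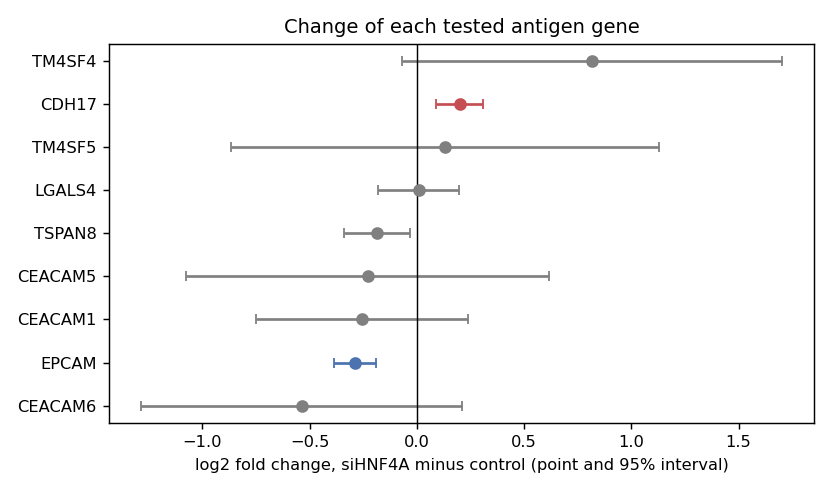
Log2 fold change of each tested antigen gene (siHNF4A minus control, point) with its 95% interval from limma (bar), red for the called rise, blue for the called fall and grey where the adjusted p was 0.05 or more. The interval of EPCAM runs from -0.39 to -0.19 and that of CDH17 from 0.089 to 0.31, while those of TM4SF4, TM4SF5 and the CEACAM genes are several times wider and cross 0.

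The 3 CEACAM genes were present at low to moderate values and none was called. They lie on chromosome 19 and arose by duplication, so their sequences are alike. The stretches of 250 bases before the start of CEACAM5 (chr19:41708376-41708625, plus strand) and of CEACAM6 (chr19:41755280-41755529, plus strand) in RefSeq's GRCh38.p14 are shown because they make this likeness visible. Capitals mark the 4 runs of at least 12 bases that the aligned windows share without a mismatch.
CEACAM5: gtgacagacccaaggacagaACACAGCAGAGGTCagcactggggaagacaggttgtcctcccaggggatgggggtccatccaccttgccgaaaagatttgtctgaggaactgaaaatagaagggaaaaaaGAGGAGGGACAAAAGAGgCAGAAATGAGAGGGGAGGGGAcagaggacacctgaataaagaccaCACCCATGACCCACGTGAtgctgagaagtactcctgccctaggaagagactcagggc
CEACAM6: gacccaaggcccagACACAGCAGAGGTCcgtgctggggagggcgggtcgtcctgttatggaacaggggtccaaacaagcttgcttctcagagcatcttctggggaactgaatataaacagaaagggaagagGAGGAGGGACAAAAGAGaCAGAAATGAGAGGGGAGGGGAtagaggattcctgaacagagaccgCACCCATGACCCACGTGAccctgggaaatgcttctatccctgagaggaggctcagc
The longest shared run has 21 bases. The aligned windows were identical at 76% of positions, and the 50 transcribed bases after the start at 80%. The window of CEACAM1 was identical to that of CEACAM5 at 68% and to that of CEACAM6 at 70.8%, beside 39.6 to 54.4% in the other pairs of members. Where the transcripts are as alike, the authors' counting could have split reads between them, so single values of these genes are uncertain. In the RefSeq annotation CEACAM1 also overlaps LIPE-AS1 and LOC105372407, and CEACAM6 overlaps LOC112268252.

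CEACAM1, which carries an inhibitory tail in its long isoforms, had 179 and 193 normalized counts in the controls, against 197 and 122 in the knockdown. The groups overlapped, since siHNF4A 1 was the highest library and siHNF4A 2 the lowest. CEACAM5 had 55.6 and 30.1 against 27.4 and 44.0, also with overlap. CEACAM6, a GPI-anchored relative, had 30.8 and 41.3 against 26.2 and 22.6, and both knockdown libraries lay below both controls. The log2 fold changes were -0.26 for CEACAM1 (95% interval -0.75 to 0.24), -0.23 for CEACAM5 (-1.07 to 0.62) and -0.54 for CEACAM6 (-1.28 to 0.21), with adjusted p-values of 0.49, 0.74 and 0.33 in limma. The sign of CEACAM1 turned to 0.087 without siHNF4A 2, and that of CEACAM5 to 0.20 without control 1 and to 0.10 without siHNF4A 1.

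Close relatives were also summed, which takes out a split of reads among them but restores no reads that the counting dropped or gave to other genes. CEACAM1, CEACAM5 and CEACAM6 together had 265.2 and 264.5 normalized counts in the controls, against 251 and 189 in the knockdown. The log2 fold change of this sum was -0.28 with a 95% interval of -0.65 to 0.084 (adjusted p = 0.29 in limma), so that a fall of up to 0.65 or a rise of up to 0.084 on the log2 scale lies within the interval. CEACAM5 and CEACAM6 together had 86.4 and 71.4 against 53.6 and 66.6 (-0.39, adjusted p = 0.33). Among 9 other CEACAM genes 4 were in the table and only CEACAM19, a distant member, reached the tested range, with 27.3 and 28.2 against 30.6 and 23.8 (adjusted p = 0.95 in limma). CEACAM8, CEACAM18 and CEACAM20 had at most 2.02 normalized counts in any library.

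LGALS4, a galectin of the intestinal surface with a pair of sugar-binding domains, had 1502 and 1723 normalized counts in the controls, against 1595 and 1643 in the knockdown. The knockdown libraries lay between the controls. Its log2 fold change was 0.0088 with a 95% interval of -0.18 to 0.20 and an adjusted p of 0.96 in limma, which leaves room for changes of up to about that size in either direction. Of 9 other galectin genes, a count that includes the galectin-binding LGALS3BP, 7 were in the table, 5 were tested and 1, or 20%, was called, beside 14.1% of all genes tested. None of the 4 whose mean reached 1000 normalized counts was called, beside 26.2% of all such genes. LGALS2, another gut galectin, fell from 57.2 and 58.0 to 28.3 and 14.1 normalized counts (log2 fold change -1.48, standard error 0.37, adjusted p = 0.026 in limma). This call was lost without siHNF4A 2, where the log2 fold change was -1, and without the filter on low values (adjusted p = 0.127 in limma). LGALS3, with 3858 to 4509 normalized counts over the 4 libraries, LGALS3BP, LGALS8 and LGALS9 had log2 fold changes from -0.15 to 0.23 and were not called.

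TSPAN8, a tetraspanin of digestive tract epithelium and its tumours, had 2344 and 2513 normalized counts in the controls, against 2133 and 2136 in the knockdown. Both knockdown libraries lay below both controls. The log2 fold change of -0.19 had a standard error of 0.070, a 95% interval of -0.34 to -0.030 and an adjusted p of 0.11 in limma. The difference did not pass the test after adjustment over all genes. Its adjusted p lay between 0.08 and 0.38 over the alternatives and the sign did not change in any of them. Of 30 other tetraspanin genes 29 were in the table and 24 were tested, and 4 of these, or 16.7%, were called, a share near the 14.1% of all genes tested. CD9, a broadly expressed tetraspanin that associates with EPCAM, fell from 5543 and 5937 to 4714 and 4382 normalized counts (log2 fold change -0.34, adjusted p = 0.0083 in limma). TSPAN15, which directs ADAM10 to its substrates, rose from 2753 and 2760 to 3579 and 3414 (0.34, adjusted p = 0.0070 in limma), and TSPAN13 rose from 1819 and 1742 to 2211 and 2358 (0.36, adjusted p = 0.010 in limma).

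The fourth was TSPAN7, which rose from 196 and 217 to 333 and 291 normalized counts (0.59, adjusted p = 0.024 in limma). The calls of CD9 and TSPAN13 were lost without siHNF4A 2, that of TSPAN15 without siHNF4A 1 and that of TSPAN7 without either knockdown library. Without the filter on low values those of CD9, TSPAN13 and TSPAN7 were lost as well (adjusted p = 0.061, 0.0583 and 0.0862 in limma), while TSPAN15 kept its call (0.0437). The median log2 fold change of the 24 tetraspanins was 0.065, and CD63, CD81 and CD151, common tetraspanins of exosomes and adhesion complexes, were not called.

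TM4SF4 and TM4SF5 lay near the lower end of the tested range. TM4SF4 had 21.4 and 51.3 normalized counts in the controls, against 68.8 and 50.9 in the knockdown. The groups overlapped narrowly, since siHNF4A 2 lay just below control 2. Its log2 fold change of 0.82 was the furthest from 0 among the 9 tested members, but with a standard error of 0.40 and a 95% interval of -0.071 to 1.70 it missed the threshold (adjusted p = 0.21 in limma). The value rested on control 1: it was 0.20 without that library, and it was 1.43 and called without control 2 (adjusted p = 0.0145 in limma). TM4SF5 had 11.4 and 20.8 normalized counts in the controls, against 16.1 and 18.0 in the knockdown, with both knockdown libraries between the controls and a 95% interval of -0.87 to 1.13 (adjusted p = 0.88). The sum of both genes gave a log2 fold change of 0.64 (95% interval -0.14 to 1.42, adjusted p = 0.26 in limma). TM4SF4 overlaps the pseudogene EEF1A1P45 in the RefSeq annotation.

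The 2 related genes with the smallest adjusted p-values both belong to the L6 family. TM4SF20 fell from 607 and 579 to 265 and 264 normalized counts, or to 44.6% of the control mean (log2 fold change -1.16, standard error 0.11, adjusted p = 0.00029 in limma). TM4SF1, a tumour-associated antigen also found on endothelium, rose from 659 and 841 to 1367 and 1409, or to 185% (0.90, standard error 0.11, adjusted p = 0.0012 in limma). Both genes kept their calls with any 1 library left out. TM4SF19 had 2.42 and 1.34 against 9.55 and 4.84 and was below the tested range.

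The 250 bases before the start of TM4SF4 (chr3:149474447-149474696, plus strand, RefSeq's GRCh38.p14) are shown because this was the one member whose window held motifs of gut transcription factors among those searched. Capitals mark, from left to right, a match on the reverse strand to GTTAATNAT, the motif of the HNF1 factors, starting 142 bases before the start, and a match to TTTATNG, the motif of the intestinal CDX factors, starting 76 bases before it.
TM4SF4: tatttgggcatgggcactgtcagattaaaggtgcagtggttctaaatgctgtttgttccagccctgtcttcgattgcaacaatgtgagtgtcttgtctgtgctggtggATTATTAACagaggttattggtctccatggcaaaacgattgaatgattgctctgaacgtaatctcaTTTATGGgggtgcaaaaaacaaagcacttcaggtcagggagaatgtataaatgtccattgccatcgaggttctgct
Sequences were at hand for 7 of the 10 members, in 8 windows (TSPAN8 has 2 starts), and not for CDH17, EPCAM and MEP1A. Over all 35116 windows of this length in the table, searched on both strands, GTTAATNAT was found in 0.723% and TTTATNG in 8.93%. The other motifs searched were CAAAGTCCA of HNF4 factors, found in 0.325% of all windows, AGATAA of GATA factors, in 9.17%, and the GC box GGGGCGGGG, in 15.1%. Among the members' windows these had only a GC box before CEACAM1, on the reverse strand from 54 bases before the start. A match is a description of letters, and no binding was measured at these windows here.

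MEP1A, with 8.55 and 13.3 normalized counts in the controls, against 5.39 and 6.07 in the knockdown, had a mean of 8.34 and was not tested. Both knockdown libraries lay below both controls. In a fit of all genes above 0 in at least 1 library its log2 fold change was -0.80 with a 95% interval of -1.99 to 0.39 and an adjusted p of 0.49 in limma. MEP1B, the other meprin subunit, had 30.3 and 14.8 normalized counts against 14.6 and 8.71 (adjusted p = 0.29). Of 7 genes listed for MEP1B and other brush border peptidases 5 were tested and 1, or 20%, was called, beside 14.1% of all genes tested. This was ANPEP, aminopeptidase N, which fell from 81.0 and 46.9 to 15.6 and 26.0 normalized counts (log2 fold change -1.56, standard error 0.38, adjusted p = 0.023 in limma). It was not called without control 1 (log2 fold change -1.18), without siHNF4A 1 (-1.22) or without the filter on low values (adjusted p = 0.122 in limma). DPP4, a dipeptidyl peptidase of the brush border, had 5082 and 5206 against 4534 and 4605 and was not called (adjusted p = 0.077).

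**Figure D3:**
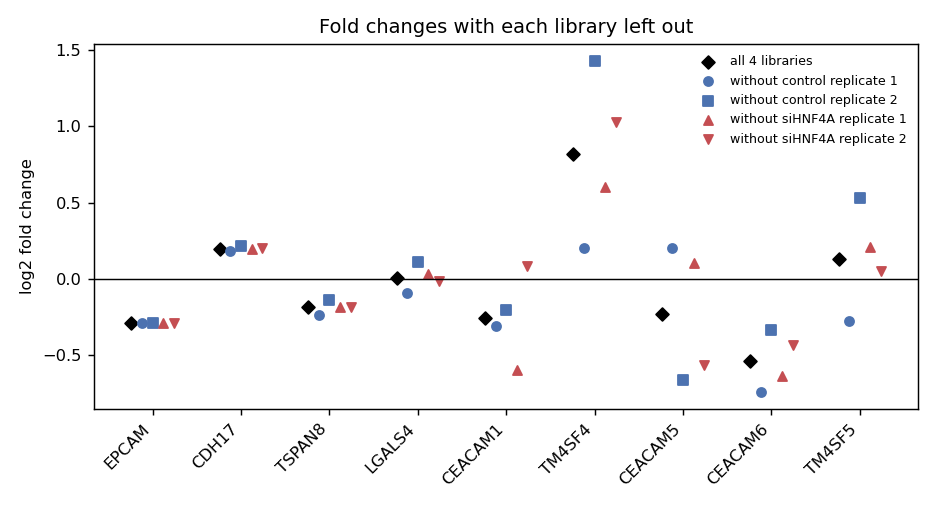
Log2 fold change of each tested antigen gene with all 4 libraries (black diamonds) and with each library left out in turn (blue for a control left out, red for a knockdown library left out). EPCAM stays between -0.291 and -0.289, whereas TM4SF4 ranges from 0.20 to 1.43 and CEACAM1, CEACAM5, LGALS4 and TM4SF5 cross 0.

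The members differed in how closely their change could be measured. The 4 whose mean reached 1000 normalized counts, EPCAM, CDH17, TSPAN8 and LGALS4, had standard errors of 0.044 to 0.085 on the log2 scale, and 2 of them were called. Among all genes with such a mean 26.2% were called, and the groups did not overlap for 69.2%. The 5 other tested members had standard errors of 0.22 to 0.45, and none was called. At this precision a change of the size seen in EPCAM was not detectable in them.

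Other surface antigens of gastrointestinal epithelium and its cancers were read from a list of 17 genes, of which 16 were in the table and 13 were tested. Of these 6 were called, 3 higher and 3 lower, and the median log2 fold change was -0.15. MUC1, a transmembrane mucin, rose from 2145 and 2332 to 4687 and 4169 normalized counts (0.98, adjusted p = 9.72e-05 in limma). PROM1 (CD133), a stem cell and tumour antigen, rose from 132 and 120 to 305 and 248 (1.12, adjusted p = 0.0025 in limma). The mucin MUC13 rose as well, with a log2 fold change of 0.44. Of the other mucins on the list, MUC3A had 1244 and 1265 against 1122 and 1059 and was not called (adjusted p = 0.13 in limma), and MUC17 had 9.18 and 16.7 against 4.19 and 1.18 and was not tested.

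GUCY2C, the intestinal guanylate cyclase that is also a target of tumour therapies, fell from 2329 and 2407 to 1532 and 1547 normalized counts, or to 65.0% of the control mean (-0.62, adjusted p = 0.00064 in limma). ERBB3 fell by 0.48 and CLDN4, a tight junction claudin, by 0.30 on the log2 scale (adjusted p = 0.0019 and 0.028 in limma). CLDN4 was not called without control 2 or either knockdown library, nor without the filter on low values (adjusted p = 0.155 in limma). GPA33, MSLN, CLDN3, SLC44A4, MET and ERBB2 were not called, and CLDN18 had at most 2.24 normalized counts in any library. The list of related genes as a whole, with 51 of 75 tested, had 12 called genes, 6 higher and 6 lower, and a median of 0.026. The shares called, 46.2% of the antigens and 23.5% of the related genes, stand beside 14.1% of all genes tested. Among genes whose mean reached 1000 normalized counts 5 of 10 antigens and 8 of 27 related genes were called, beside 26.2% of all such genes. The lists were chosen with earlier results of these data known, so the shares of the lists and of their families are not independent of that choice.

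**Figure D4:**
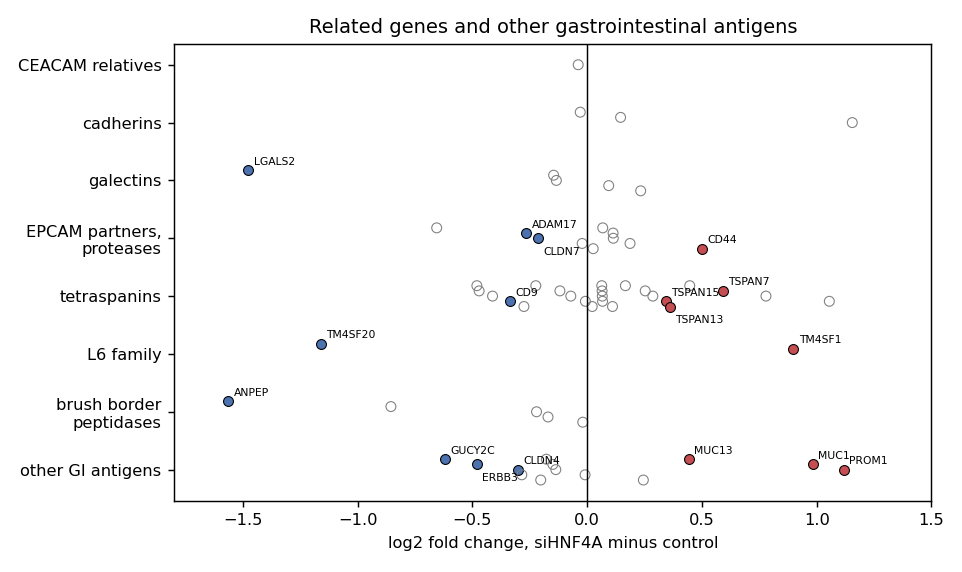
Log2 fold change (siHNF4A minus control) of the tested related genes, apart from 1 that is not reported, and of other gastrointestinal antigens, by family; filled points with names were called (red higher, blue lower) and open points were not. In each of the families with 2 or more called genes, rises and falls stand side by side, from -1.16 for TM4SF20 to 0.90 for TM4SF1 in the L6 family.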

How the data were processed

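RNA-seq was measured in 2 siHNF4A and 2 control libraries of ESO26, grouped by their titles, although the series text speaks of triplicates. The deposited table holds a normalized count per gene symbol and library, a signal value already normalized by the authors. The counting program and the normalization are not given in the sources used here. The submitters' processing notes name hg19, Bowtie, Bowtie2, Trim Galore, Picard and MACS2 without saying which served the RNA-seq. Values are fractional and their depth is unknown, so no count model and no counting interval was used.

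Genes with a mean of at least 10 were tested with limma 3.58.1 in R 4.3.3 (intensity trend) on log2(normalized count + 1), which understates changes of low genes, with Benjamini-Hochberg adjustment over all 15577 and calls at an adjusted p below 0.05. For 1 gene alone, exact permutation of these libraries (two-sided) reaches 0.333 at the lowest. A simulated table of 15577 genes had 200 changed by 1 on the log2 scale in this comparison. Of these 74% were called, and 8.07% of calls were false. Its spread was set by the mean of each gene alone. In the data, the median absolute log2 fold change of called genes was 0.453. The simulated shares therefore do not describe calls of smaller changes, such as those of EPCAM and CDH17. Named were HNF4A, the members, the called genes of the related and antigen lists with a mean of at least 100 (at most 8 per list, by size of change) and the 3 genes most like the tested member with the largest fold change. CLDN7, LGALS2, ANPEP, the marker genes and the genes not called were named outside this rule. Single values of 1 gene of the related list are not reported here, and it is included in that list's counts. The members and lists were chosen with earlier results of these data known. Promoter windows and gene overlaps come from RefSeq's GRCh38.p14, and Biopython 1.88 aligned the windows. The peak lists were not used here, since no annotation of their build was at hand to place peaks at genes. The 4C libraries were not analysed here.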

Additional observations from a re-analysis of the deposited data

How the results depend on the processing

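The alternatives were other pseudocounts, filters, scalings and variance models, the replicate block and leaving out each library. The number of members called, 2 as reported, was 1 without the filter on low values and 0 without the variance trend, where 0 of all genes were called although 3524 genes, 2 of them members, had an unadjusted p under 0.05 in limma. It lay between 1 and 3 when 1 library was left out. The calls in the list of related genes, 12 as reported, fell to 3 without the filter and 0 without the trend, and lay between 4 and 11 with 1 library left out. Those of the antigen list, 6 as reported, fell to 0 without the trend and lay between 5 and 7 with 1 library left out. The cause of these losses was not tested. EPCAM kept its call in every alternative that was run except the fit without the trend (adjusted p = 0.168 in limma). Signs turned only for genes that were not called. With 1 library left out, CEACAM1 ranged from -0.599 to 0.087, CEACAM5 from -0.661 to 0.203, LGALS4 from -0.090 to 0.108, TM4SF5 from -0.273 to 0.533 and FYN from -0.075 to 1.28, and TM4SF5 was at -0.012 after quantile normalization.

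With the replicate number as a block 2 members, 13 related genes and 7 antigens were called, and over all genes 2428 in place of 2202. Deviations of same-numbered libraries were nearly unrelated (r = -0.019 across 15577 genes and 0.056 across the 10918 with a mean of at least 100). The number was therefore not taken to pair them. Over all genes, calls were 726 without the filter, and 2413, 1916, 985 and 906 without control 1, control 2, siHNF4A 1 and siHNF4A 2.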

Other observations

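Among the 10918 genes whose mean reached 100 normalized counts, those whose 4 centred log2 values lay nearest to the values of TM4SF4, the tested member with the largest fold change on the log2(normalized count + 1) scale, were CHST15 (Euclidean distance 0.268), FYN (0.312) and AC010970.2 (0.388), over 4 libraries. None of the 3 was called in limma with all 4 libraries and no block (adjusted p = 0.093, 0.31 and 0.13). With the replicate block CHST15 and AC010970.2 were called (adjusted p = 0.0418 and 0.0485), and without control 2 all 3 were (0.00133, 0.00314 and 0.000133), as was AC010970.2 without siHNF4A 2 (0.0458). As these genes were chosen for their likeness to TM4SF4, the low control 1 that they share with it and the calls without control 2 are not independent of the choice.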
